A study of Homo sapiens with 8 samples.

Results

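The 4 libraries numbered replicate 2 were compared with the 4 libraries numbered replicate 1, each within its own line of A-498 cells. A-498 is a human cell line established from a kidney cancer. The members were chosen by the number in the library titles, which took 4 of the 8 libraries, and the genes described were those with a normalized read count of at least 10 in at least 2 libraries, 14040 of 28395. All 4 lines were A-498 derivatives. Control lines 1 and 2 (Ctrl.-1 and Ctrl.-2) were labelled wild type control and carried 1 non-targeting guide RNA each. The other 2 lines (KO.-1 and KO.-2) were labelled ANXA4 knockout and carried 1 guide RNA each against ANXA4, the gene of annexin A4. Cells were seeded at equal numbers in RPMI medium with fetal calf serum and harvested 1 day later without reaching confluence, and polyadenylated RNA was sequenced. Each guide RNA was thus 1 line, and each line gave 1 library per replicate number. The labels did not say what the number stood for, so the replicate number cannot be told apart from a culture, a harvest or a library preparation that may have gone with it.

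Cells of 1 line keep their genotype from culture to culture, but several gene programs respond quickly to medium, serum, density and handling. Immediate early genes are transcribed within minutes of growth factor signalling through serum response factor and ternary complex factors. NF-kB drives cytokines and acute phase proteins, ATF4 drives amino acid synthesis and uptake when amino acids are short or the endoplasmic reticulum is stressed, and NRF2 drives enzymes that detoxify electrophiles. Below, each difference is replicate 2 minus replicate 1, on the scale of log2(normalized read count + 1), with its standard error (SE) from a limma fit that paired the libraries within each line. A gene passed the test at an adjusted p under 0.05 (limma, Benjamini-Hochberg over all 14040 genes). The p-values measure the spread between these libraries only.

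The replicate 2 libraries were smaller in all 4 lines. Replicate 1 gave 16904423 to 22631588 reads and replicate 2 gave 15784890 to 17610801. A two-sided exact permutation test, not paired within line, gave p = 0.0857, where 0.0286 is the smallest p that 4 against 4 allows. Mitochondrial genes held 4.67% to 6.43% of the reads in replicate 1 and 6.23% to 13.8% in replicate 2. That share was higher in replicate 2 in 3 of 4 lines, with the highest value in the line labelled KO guide 2 (exact permutation p = 0.286, also not paired within line). ANXA4 was measured to check the labels. Its normalized counts in replicates 1 and 2 were 2821 and 3614 in control line 1, 3858 and 6773 in control line 2, 236 and 234 in the line labelled KO guide 1, and 3433 and 4142 in the line labelled KO guide 2. By RNA count, the last line was thus not lower than control line 1, although it was labelled knockout. The counts do not measure annexin A4 protein or the edit itself. PAX8, a renal lineage transcription factor, ranged from 2987 to 4476, and VIM, which encodes vimentin, from 37386 to 83227. Other renal markers were low, with CA9 from 2.07 to 24.8 and LRP2 at most 1.13. The leukocyte genes PTPRC and CD3E reached at most 1.21 and 0, and the endothelial gene CDH5 was at 0. Not all markers of other cell types were absent, since the leukocyte gene ITGAM ranged from 21.8 to 83.8 and the endothelial gene TEK from 21.7 to 67.6. In bulk RNA, fewer cells of a type and less RNA per cell cannot be told apart.

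Of 14040 genes, 2470 (17.6%) differed between the replicate numbers by limma, 1260 higher (8.97%) and 1210 lower (8.62%) in replicate 2. Scaling the libraries to equal totals gave 795 higher and 1867 lower (29.9% higher, against 51.0%). Equal totals without mitochondrial genes gave 1041 and 1511 (40.8% higher). Those 2 scalings moved the median of all genes from 0.00 to -0.07 and -0.03. Of the genes that passed, 186 differed at least 2-fold, 128 higher and 58 lower, and the median size was 0.45 among the higher and -0.44 among the lower. The same direction in all 4 lines was seen for 2842 genes higher (20.2%) and 2707 lower (19.3%), 39.5% in all, and for 2385 of the 2470 that passed. All 4 replicate 2 libraries lay above all 4 replicate 1 libraries for 499 genes (3.55%) and below them for 508 (3.62%), 7.17% in all. Leaving out control line 2 gave 709 calls (383 higher, 326 lower), and leaving out the line labelled KO guide 2 gave 1158 (612 and 546). Leaving out control line 1 gave 1442 (769 and 673), and leaving out the line labelled KO guide 1 gave 2274 (1155 and 1119). The list counts below with 1 line left out are to be set beside these counts, not beside 8.97% and 8.62%. No gene passed when the libraries were not paired within line (limma), where 1624 had an unadjusted p under 0.05. The paired count tests called 2467 (edgeR) and 2120 (DESeq2).

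The differences of lines that share no library could be set side by side. Across the 14040 genes, the mean difference in the control lines and that in the lines labelled KO correlated at r = 0.59 (Pearson) and 0.63 (Spearman), as a description across genes, which are not independent. For the 6 pairs of single lines, Pearson's r lay between 0.28 and 0.50. A difference between the lines labelled KO and the control lines was called for 1 gene (0.00712%, limma interaction). That gene was GGNBP2, and 252 genes had an unadjusted p under 0.05 in the same test. Its counts in replicates 1 and 2 were 23.9 and 95.7 in control line 1, 31.8 and 205 in control line 2, 126 and 27.0 in the line labelled KO guide 1, and 129 and 38.6 in the line labelled KO guide 2. The 2 control lines were thus higher in replicate 2 and the other 2 lines lower, and the differences of the pairs of lines differed by -4.25 (adjusted p = 0.00718). It was no longer tested with a floor of 50 in all 8 libraries, where 0 genes were called.

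**Figure D1:**
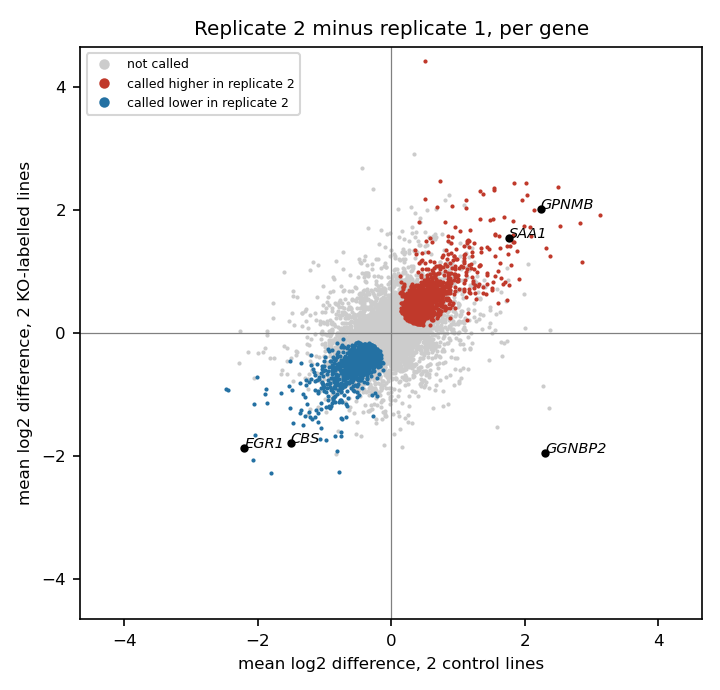
Each point is 1 of 14040 genes, placed by its mean log2 difference (replicate 2 minus replicate 1) in the 2 control lines (horizontal) and in the 2 lines labelled KO (vertical), with the genes that passed in colour. EGR1 and CBS lie low on both axes, GPNMB and SAA1 high on both, and GGNBP2 lies high in the control lines and low in the others.

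A set of 4 genes shows how the replicate numbers differed, and their counts are given first in replicate 1 and then in replicate 2. EGR1 (Entrez gene 1958, chromosome 5), an immediate early transcription factor, had 382 and 40.6 normalized counts in control line 1, 155 and 66.8 in control line 2, 319 and 108 in the line labelled KO guide 1, and 491 and 106 in the line labelled KO guide 2. Every replicate 2 library lay below every replicate 1 library, and the fitted level was 4.11-fold lower (log2 difference -2.04, SE 0.25, adjusted p = 0.000664 by limma, lower in 4 of 4 lines). GPNMB (Entrez gene 10457, chromosome 7), a transmembrane glycoprotein of lysosomes and melanosomes and a target of the MiT/TFE factors, had 144 and 367 in control line 1, 66.2 and 589 in control line 2, 14.1 and 78.8 in the line labelled KO guide 1, and 72.4 and 229 in the line labelled KO guide 2. It was higher in replicate 2 in 4 of 4 lines (4.38-fold, log2 2.13, SE 0.23, adjusted p = 0.000371 by limma). The groups overlapped, because the line labelled KO guide 1 was low under both numbers.

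SAA1 (Entrez gene 6288, chromosome 11), an acute phase protein carried on lipoproteins, had 16.5 and 53.04 counts in control line 1, 73.1 and 276 in control line 2, 49.3 and 121 in the line labelled KO guide 1, and 76.5 and 273 in the line labelled KO guide 2. All 4 lines were higher in replicate 2 (3.15-fold, log2 1.66, SE 0.16, adjusted p = 0.000163 by limma). CBS (Entrez gene 875, chromosome 21), cystathionine beta-synthase, joins homocysteine to serine in the first step of transsulfuration. Its counts were 219 and 97.8 in control line 1, 92.9 and 24.9 in control line 2, 150 and 97.5 in the line labelled KO guide 1, and 119 and 14.5 in the line labelled KO guide 2. It was 3.13-fold lower in replicate 2 (log2 -1.65, SE 0.29, adjusted p = 0.00407 by limma), most of all in the line labelled KO guide 2. SAA1 and SAA2 are near copies, so reads may be split between them.

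**Figure D2:**
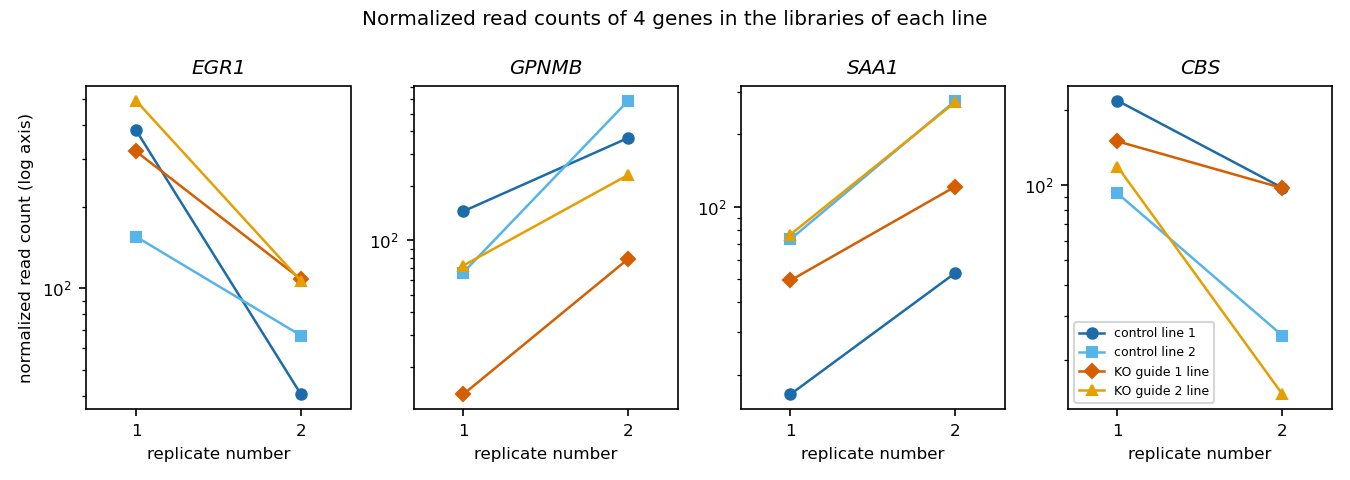
Normalized read counts (log axis) of EGR1, GPNMB, SAA1 and CBS under replicate numbers 1 and 2, with 1 line joining the libraries of each of the 4 lines. EGR1 and CBS are lower in replicate 2 in every line, and GPNMB and SAA1 are higher in every line.

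Among genes with a mean count of at least 50 and 1 direction in all 4 lines, the 12 largest positive differences led with GPNMB and COXFA4L3. COXFA4L3 ranged from 19.3 to 82.7 in replicate 1 and from 77.0 to 299 in replicate 2 (log2 1.90, SE 0.16, adjusted p = 7.03e-05 by limma). HMGA2, a chromatin-binding protein of embryonic and tumour cells, had 318, 191, 208 and 515 counts in replicate 1 of the 4 lines and 926, 570, 797 and 1229 in replicate 2 (lines in the order used above). No replicate 2 library of HMGA2 overlapped replicate 1, and its difference of 1.57 (SE 0.11) had an adjusted p of 2.41e-05 by limma. ADTRP, CRYAB and STC1 did not overlap either, with log2 differences of 1.60, 1.58 and 1.43. CRYAB is a small heat shock protein, and STC1 is a secreted glycoprotein hormone. TNFAIP6, a hyaluronan-binding protein induced by inflammatory cytokines, was higher by 1.65, KCNJ16, a potassium channel subunit of kidney epithelium, by 1.40, and the keratin KRT75 by 1.34. CD99 passed with an uneven pattern: 124 and 731 in control line 1 and 105 and 874 in the line labelled KO guide 1, but 119 and 160 in control line 2 and 715 and 1101 in the line labelled KO guide 2.

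The 12 largest negative differences led with EGR1 and NOMO3. NOMO3 was lower by 1.85 (SE 0.20, log2), but it has near-identical copies between which reads may be split. GLP2R, the receptor of glucagon-like peptide 2, had a difference of -1.47, and ADM2, a peptide of the adrenomedullin family, of -1.44. GLP2R ranged from 66.2 to 138 in replicate 1 and from 17.0 to 43.6 in replicate 2, with no overlap. SOWAHD differed by -1.40, the pseudogene CASTOR3P by -1.29, RGP1 by -1.29, ANK1, an anchor of membrane proteins to spectrin, by -1.27, the synaptotagmin SYT7 by -1.26 and the uncharacterized LOC105373989 by -1.21. CBS, described above, and CHAC1, which degrades glutathione, completed the 12. Without control line 2, LOC105373989 no longer passed (adjusted p = 0.0573 by limma).

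**Figure D3:**
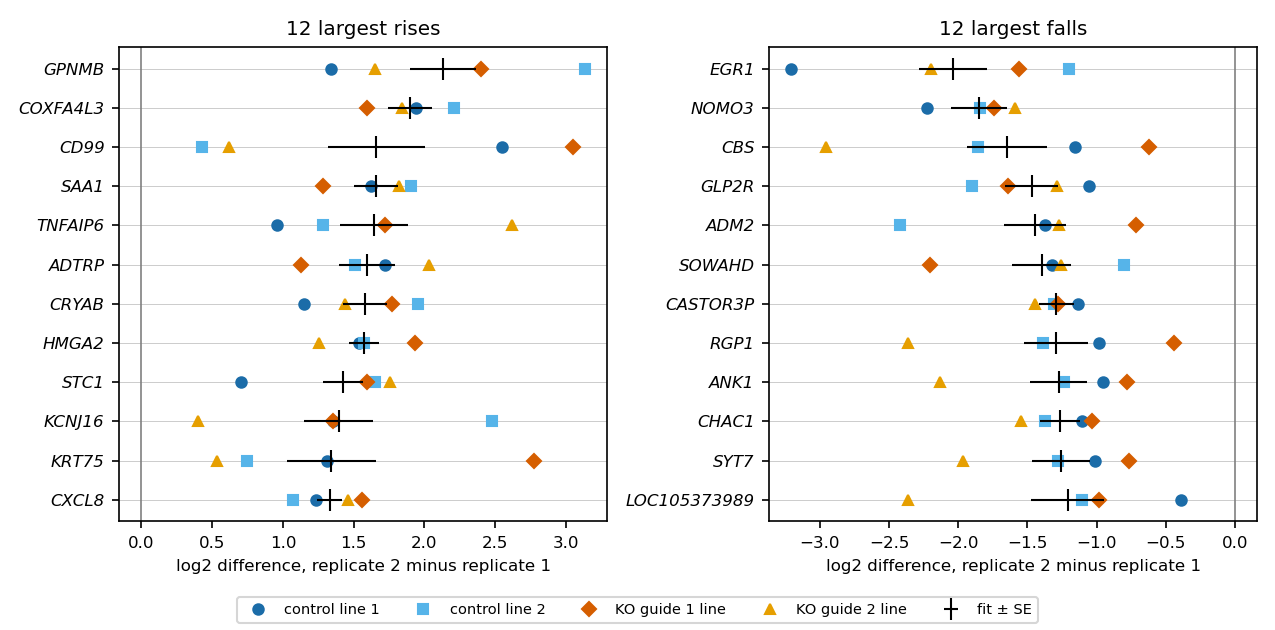
Log2 differences (replicate 2 minus replicate 1) of the 12 genes with the largest positive and the 12 with the largest negative fitted difference, with a symbol per line and the fitted value ± SE. All 4 symbols of each gene lie on 1 side of 0, as the rule for these genes required, and CD99 and KRT75 spread most widely among the positive ones.

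Immediate early genes did not differ as 1 group. Of 33 tested, 3 were higher and 7 lower in replicate 2, against 8.97% and 8.62% of all genes, and the median difference was -0.08 against 0.00 over all genes. The 7 were EGR1, ARC, DUSP1, SRF, BTG2, JUNB and MYC. SRF, BTG2, JUNB, MYC and ARC were named after their values were seen. Without control line 2, 3 were lower, and 4 were without control line 1 or the line labelled KO guide 2. DUSP1, a phosphatase that switches off MAP kinases, had 1714 ± 265 counts in replicate 1 and 1171 ± 303 in replicate 2 (SD, n = 4, log2 -0.57, adjusted p = 0.0129 by limma, and 0.0817 without control line 2 and 0.0542 without the line labelled KO guide 2). The 3 in the other direction included SPRY4 and DUSP6, which are feedback inhibitors of receptor tyrosine kinase and ERK signalling, with FOSL1 as the other one, named after its value was seen. DUSP6 differed by 0.55 and did not pass without the line labelled KO guide 2 (adjusted p = 0.0523 by limma). SPRY4 had 120 ± 30.9 and 235 ± 79.8 counts (log2 0.94, adjusted p = 0.00187 by limma), with no overlap.

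Serum response factor binds CArG boxes, and the promoter stretches of EGR1 and of SRF itself are shown because both genes were lower in replicate 2 and were the 2 of 23 immediate early promoters that held the motif. The windows came from RefSeq (GRCh38.p14) and ran from 250 bases before to 50 after each start. Capitals mark CArG boxes, searched on both strands by that name, and their first bases lay at -105 and -83 (EGR1) and at -30 and -10 (SRF) from the start.
EGR1, chr5:138465355-138465424, plus strand: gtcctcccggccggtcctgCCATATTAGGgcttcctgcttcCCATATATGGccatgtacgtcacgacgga
SRF, chr6:43171199-43171268, plus strand: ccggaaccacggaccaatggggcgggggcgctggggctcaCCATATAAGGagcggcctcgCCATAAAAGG
A CArG box was found in 1.29% of all 27305 windows of 300 bases. It was also found in 5 of 20 windows of the actin and SRF target list, in ACTG1, CNN2, FHL2, FLNA and TPM4. In that list 1 of 23 tested genes was higher and 2 lower in replicate 2 (median -0.06). These were 4.35% and 8.70%, against 8.97% and 8.62% of all genes, so the share of lower genes was near that of all genes. FLNA, which encodes the actin cross-linker filamin A, had 93073 ± 4416 and 66019 ± 16079 counts (SD, n = 4), with no overlap (log2 -0.53, adjusted p = 0.021 by limma). It did not pass after correction for GC content and transcript length, without control line 2 (adjusted p = 0.16) or without the line labelled KO guide 2 (0.089).

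Cytokines and chemokines were prominent among the NF-kB targets that passed. Of 24 targets tested, 11 were higher in replicate 2 (45.8%, against 8.97% of all genes), 3 were lower and 10 did not pass, and the median difference was 0.40. The line medians were 0.45, 0.20 and 0.73, but 0.00 in the line labelled KO guide 2. Without control line 1 or the line labelled KO guide 1, 7 were higher, and 8 and 9 were without the others. CXCL8, the neutrophil chemokine interleukin 8, had 1501, 1483, 1269 and 913 counts in replicate 1 of the 4 lines and 3540, 3115, 3736 and 2511 in replicate 2. All replicate 2 libraries lay above all replicate 1 libraries (2.51-fold, log2 1.33, SE 0.09, adjusted p = 2.41e-05 by limma). CXCL3, another chemokine of neutrophils, ranged from 27.5 to 58.7 and from 47.6 to 196 (log2 1.25, SE 0.18). IL6, the cytokine that induces acute phase proteins, had 311 and 716 counts in control line 1, 201 and 398 in control line 2, 112 and 395 in the line labelled KO guide 1, and 556 and 814 in the line labelled KO guide 2 (log2 1.13, SE 0.16, adjusted p = 0.00132 by limma). CCL2, a monocyte chemokine, was higher by 0.96 (SE 0.10) in 4 of 4 lines. The 3 lower genes, named after their values were seen, were BCL3, TNFAIP2 and NFKB1, of which NFKB1 encodes an NF-kB subunit.

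The kappa B site is the sequence that NF-kB dimers bind, and it was found in 11 of 21 windows of this list, against 5.72% of all windows. Those of CXCL3 and IL6 are shown because both genes were higher in replicate 2 in every line. The windows of BCL3 and NFKB1, which were lower in replicate 2, held the site too. Capitals mark the site, searched on both strands by that name. In CXCL3 matches on the 2 strands overlap (first bases at -79 and -78 from the start), and in IL6 the match begins at -73.
CXCL3, chr4:74038729-74038798, minus strand: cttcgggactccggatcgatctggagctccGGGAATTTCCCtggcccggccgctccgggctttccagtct
IL6, chr7:22727097-22727166, plus strand: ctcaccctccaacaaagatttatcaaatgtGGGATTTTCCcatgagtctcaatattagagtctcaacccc
A match describes the letters of the window only. The CXCL8 window held no match to the kappa B pattern that was searched, and that search leaves out sites that differ from the pattern by a letter. It held an AP-1 site (TGANTCA, either strand), a motif of 7.76% of all windows.

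Among acute phase and complement genes, 9 of 24 listed were expressed at a level that allowed the test. Of these 9, 6 were higher (against 8.97% of all genes) and 0 lower, and the median difference was 0.74. Those counts were 5 to 7 and 0 without any 1 line. C3, the central complement component, had 500 and 1217 counts in control line 1, 1608 and 2251 in control line 2, 2417 and 4330 in the line labelled KO guide 1, and 1703 and 2754 in the line labelled KO guide 2 (log2 0.82, SE 0.11, adjusted p = 0.001 by limma). All 4 lines were higher in replicate 2, and the groups overlapped. C1R, a protease of the classical pathway, was higher by 0.68 (SE 0.12). CP, the copper carrier ceruloplasmin, had 4783 and 4790 counts in control line 1 and was 1938 and 4965 in control line 2. It passed over all lines (log2 0.74, adjusted p = 0.0102 by limma) but not by DESeq2, without control line 2 (0.0741) or without the line labelled KO guide 2 (0.0607). Reads over CP may include some of HPS3, which overlaps it in RefSeq.

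Of 29 interferon-stimulated genes tested, 7 were higher (24.1%, against 8.97% of all genes) and 0 lower (median 0.23). In single lines the median was 0.18, 0.38, 0.24 and -0.05, with the last in the line labelled KO guide 2. IFI44 had 347 ± 70.3 and 572 ± 102 counts (log2 0.73, SE 0.09, adjusted p = 0.000702 by limma), with no overlap. IFI6 (log2 0.81), ISG20 (0.70) and BST2 (0.71), which tethers enveloped viruses to the cell, did not overlap either. Without control line 2 those 3 no longer passed (adjusted p = 0.0564, 0.0928 and 0.0604 by limma), and 3 genes of the list did. ISG20 was also lost without control line 1 (0.0873) and without the line labelled KO guide 1 (0.053).

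The enzymes of serine synthesis, PHGDH, PSAT1 and PSPH, were lower in replicate 2. Of 17 serine, glycine and one-carbon genes tested, 7 were lower (41.2%, against 8.62% of all genes) and 0 higher (median -0.27), and 5 to 7 were lower without any 1 line. PHGDH, which commits glycolytic carbon to serine, had 3413, 3308, 5538 and 3622 counts in replicate 1 of the 4 lines and 2414, 1413, 3126 and 2160 in replicate 2. No library overlapped (1.77-fold lower, log2 -0.82, SE 0.10, adjusted p = 0.000735 by limma). PSAT1 and PSPH, the next enzymes of the same route, differed by -0.67 (SE 0.09) and -0.61 (SE 0.08), again in 4 of 4 lines. SLC1A4, a transporter of serine, alanine and threonine, differed by -1.07 (SE 0.12), from 250 to 502 counts in replicate 1 and from 104 to 289 in replicate 2.

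Of 33 ATF4 targets tested, 12 were lower (36.4%, against 8.62% of all genes), 1 was higher, the growth factor VEGFA, and 20 did not pass. The median was -0.22. Without control line 2, the line with the lowest median (-0.48), 5 were lower and 2 higher, against 326 and 383 of all 14040 genes. ASNS, asparagine synthetase, had 1770 and 1101 counts in control line 1, 1851 and 718 in control line 2, 3573 and 2110 in the line labelled KO guide 1, and 2119 and 1356 in the line labelled KO guide 2 (log2 -0.86, SE 0.11, adjusted p = 0.000862 by limma). The line labelled KO guide 1 was the highest under both numbers. GPT2, a mitochondrial alanine aminotransferase, differed by -0.75 (SE 0.10), and MARS1, methionyl-tRNA synthetase, by -0.71 (SE 0.10) with no overlap.

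ATF4 composite elements (TGATGNAA, either strand) were found in 8 of 28 windows of the ATF4 list and in 3.67% of all windows. ASNS of that list and CHAC1 of the glutathione list are shown because they carry the element and were among the genes lower in every line. Capitals mark the element, which begins at -68 from the start in ASNS, and at -209 in CHAC1, where it is on the opposite strand.
ASNS, chr7:97872438-97872507, minus strand: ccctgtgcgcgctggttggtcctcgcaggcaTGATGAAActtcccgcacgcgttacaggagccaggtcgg
CHAC1, chr15:40953231-40953300, plus strand: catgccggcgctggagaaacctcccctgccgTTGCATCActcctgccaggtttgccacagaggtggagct
CHAC1 had 92.9 and 42.6 counts in control line 1, 145 and 55.5 in control line 2, 254 and 123 in the line labelled KO guide 1, and 196 and 66.4 in the line labelled KO guide 2. Each line was lower in replicate 2 (log2 -1.26, SE 0.14, adjusted p = 0.000433 by limma).

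Transsulfuration and glutathione genes included CBS and CHAC1. Of 19 tested, 5 were lower (against 8.62% of all genes) and 0 higher (median -0.13), with 3 lower without either control line. The other 3 were GCLC, the catalytic subunit of the enzyme that limits glutathione synthesis, its modifier subunit GCLM, named after its value was seen, and the cystine transporter SLC7A11. GCLC had 1453 ± 510 and 899 ± 232 counts (SD, n = 4, log2 -0.67, SE 0.08, adjusted p = 0.000702 by limma). SLC7A11 had 3569 and 3548 counts in the line labelled KO guide 2 and was lower by more in the other lines (log2 -0.32, adjusted p = 0.032 by limma). It did not pass without control line 1 (0.133), control line 2 (0.186) or the line labelled KO guide 1 (0.0583).

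NRF2 antioxidant targets showed the highest share of lower genes among the 32 lists with at least 3 genes tested. Of 25, 14 were lower (against 8.62% of all genes) and 0 higher, and the median was -0.30. The line medians lay between -0.30 and -0.21. Without any 1 line, 7 to 11 were lower, the fewest without control line 2, and 8 without control line 1. AKR1B10, an aldose reductase family member, had 23019 and 13221 counts in control line 1, 35195 and 22841 in control line 2, 51565 and 28501 in the line labelled KO guide 1, and 24255 and 13962 in the line labelled KO guide 2 (log2 -0.77, SE 0.09, adjusted p = 0.000455 by limma). AKR1C1 and AKR1C2, hydroxysteroid dehydrogenases, differed by -0.69 (SE 0.08) and -1.04 (SE 0.12), but they are near copies between which reads may be split. NFE2L2, which encodes NRF2 itself, differed by -0.24 and was named after its value was seen.

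Of 23 genes of the unfolded protein response of the endoplasmic reticulum, 10 were higher (43.5%, against 8.97% of all genes), 1 was lower (HERPUD1, named after its value was seen) and 12 did not pass. The median was 0.23. Without control line 2, 5 were higher. CRELD2 had 1120 and 1531 counts in control line 1, 919 and 1977 in control line 2, 753 and 1115 in the line labelled KO guide 1, and 714 and 1395 in the line labelled KO guide 2 (log2 0.77, SE 0.11, adjusted p = 0.0013 by limma). PDIA3, a protein disulfide isomerase, was higher by 0.56 (SE 0.11) with no overlap, MANF, a secreted stress factor, by 0.55 (SE 0.08), and the co-chaperone DNAJB11 by 0.52 (SE 0.10). Of 18 cytosolic heat shock genes tested, 4 were higher (against 8.97% of all genes) and 0 lower (median 0.11), with 2 higher and 2 lower under equal totals. The 4 were CRYAB, HSPE1, HSP90AA1 and CHORDC1. CRYAB passed without each of the 4 lines in turn, and HSPE1 did not without control line 2 (adjusted p = 0.0615 by limma). HSP90AA1 did not pass whichever 1 line was left out (0.0524 to 0.155). CHORDC1 did not pass without control line 1 (0.0612), control line 2 (0.0851) or the line labelled KO guide 2 (0.102). Neither HSP90AA1 nor CHORDC1 passed with equal totals.

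Of 47 lysosomal genes and TFE targets tested, 13 were higher (27.7%, against 8.97% of all genes), 3 were lower and 31 did not pass, and the median was 0.18. Equal totals gave 7 higher and 5 lower with a median of 0.09, and equal totals without mitochondrial genes gave 10 and 5. Without control line 2, 3 were higher and 1 lower, against 383 and 326 of all 14040 genes. Without the line labelled KO guide 2, 7 were higher, against 612 of all genes. GPNMB had the largest difference. CTSS, the protease cathepsin S, had 294 and 651 counts in control line 1, 188 and 254 in control line 2, 307 and 555 in the line labelled KO guide 1, and 277 and 564 in the line labelled KO guide 2 (log2 0.86, SE 0.12, adjusted p = 0.00128 by limma). The 3 lower genes were TFEB, a transcription factor of lysosome genes, MITF of the same family (named after its value was seen) and ATP6V0A1, a subunit of the proton pump. TFEB had 161 ± 28.8 and 104 ± 28.6 counts (log2 -0.64, adjusted p = 0.0106 by limma, and 0.0784 without control line 2). ATP6V0A1 differed by -0.63 (SE 0.08). The E-box CACGTG, which TFEB and its relatives bind, was in 8 of 31 windows of the list and in 7.43% of all windows.

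Of 20 genes of EGF receptor ligands and feedback, 7 were higher (against 8.97% of all genes) and 2 lower (median 0.27), and 4 were higher without control line 2. The ligand AREG had 162 and 359 counts in control line 1, 799 and 1627 in control line 2, 1325 and 2317 in the line labelled KO guide 1, and 832 and 1298 in the line labelled KO guide 2 (log2 0.90, SE 0.09, adjusted p = 0.000312 by limma). Another ligand, TGFA, was higher by 0.57 (SE 0.08), and the 2 lower genes, named after their values were seen, were the receptors EGFR and ERBB2. Of 25 extracellular matrix genes, 7 were higher (28%, against 8.97% of all genes) and 0 lower (against 8.62%), and 18 did not pass. The median of the list was 0.33. There were 2 genes higher without control line 2, against 383 of all 14040 genes, and 4 without control line 1, against 769. LOX, which cross-links collagen and elastin, had 1296 and 1817, 889 and 1963, 263 and 330, and 324 and 802 counts in the 4 lines (log2 0.82, SE 0.14, adjusted p = 0.0041 by limma). SPARC, COL6A1 and COL1A1 were higher by 0.40 to 0.42, and none of them passed without control line 2 (adjusted p = 0.106, 0.124 and 0.109 by limma). COL6A1 and COL1A1 were also lost without control line 1 (0.0596 and 0.0712). COL1A1 is also a fibroblast marker. It made up most of the summed level of 8 fibroblast markers, which was 183 to 1048 in replicate 1 and 203 to 1437 in replicate 2, while LUM was at 0 and DCN reached at most 1.21.

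Of 23 YAP and TEAD targets tested, 9 were lower (39.1%, against 8.62% of all genes) and 3 higher, with a median of -0.17, and 4 were lower without control line 2 and 6 without the line labelled KO guide 2. AJUBA, a LIM protein of cell junctions, had 2026, 2166, 2358 and 2296 counts in replicate 1 of the 4 lines and 1429, 936, 1202 and 1322 in replicate 2. The groups did not overlap (1.83-fold lower, log2 -0.87, SE 0.10, adjusted p = 0.000625 by limma). The 3 higher genes were IGFBP3, which binds insulin-like growth factors, the coagulation initiator F3 and the ectonucleotidase NT5E. IGFBP3 had 55841 and 110434 counts in control line 1, 26382 and 122997 in control line 2, 21053 and 32311 in the line labelled KO guide 1, and 25759 and 68646 in the line labelled KO guide 2 (log2 1.31, SE 0.20, adjusted p = 0.00182 by limma). Replicate 2 of the line labelled KO guide 1 lay below replicate 1 of control line 1, so the groups overlapped.

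Of 35 hypoxia and glycolysis genes, 7 were higher (against 8.97% of all genes) and 0 lower (median 0.13), and 11 were higher after correction for GC content and length. ADM, a vasodilator peptide, had 993, 792, 1078 and 965 counts in replicate 1 and 1756, 2158, 1994 and 2196 in replicate 2, with no overlap (2.12-fold, log2 1.08, SE 0.10, adjusted p = 0.000163 by limma). VEGFA did not overlap either: 3246, 2157, 3395 and 1984 against 5641, 4024, 6060 and 3549 (log2 0.84, SE 0.07, adjusted p = 7.03e-05 by limma). ANGPTL4, an inhibitor of lipoprotein lipase, was 2.303-fold higher (SE 0.17 on the log2 scale) and the prolyl hydroxylase P4HA2 by 0.55 (SE 0.07). The other 28 genes of the list did not pass.

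Of 30 cell cycle genes of G1 to S, 10 were higher (33.3%, against 8.97% of all genes) and 1 lower (median 0.18). Equal totals gave 4 higher (median 0.11). There were 2 higher without control line 2, 3 without the line labelled KO guide 2 and 5 without the line labelled KO guide 1. In control line 1 the median was -0.03. CLSPN, a checkpoint adaptor of replication forks, had 904 ± 131 and 1474 ± 186 counts (SD, n = 4), with no overlap (log2 0.71, SE 0.09, adjusted p = 0.000889 by limma). RRM2, a subunit of ribonucleotide reductase, did not overlap (log2 0.62, SE 0.08). Of 30 genes of G2 to M, 6 were higher (against 8.97% of all genes) and 1 lower (median 0.12), and 3 were higher without control line 2. The mitotic kinases AURKB and CDK1 were higher by 0.69 (SE 0.08) and 0.68 (SE 0.11). Of 25 p53 targets, 2 were higher and 5 lower (median -0.08), against 8.97% and 8.62% of all genes, so the share of higher genes was near that of all genes. There were 8 lower after correction for GC content and length, 2 without either control line and 3 without the line labelled KO guide 2. FDXR, which passes electrons to mitochondrial P450 enzymes, was lower without overlap (1289 ± 296 and 882 ± 95.7, log2 -0.53, adjusted p = 0.00354 by limma). CDKN1A, the cyclin-dependent kinase inhibitor p21, had 3780 ± 901 and 2820 ± 603 (adjusted p = 0.0216, and 0.0875 to 0.101 without control line 1, control line 2 or the line labelled KO guide 2).

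Some programs showed few differences. Of 60 cytosolic ribosomal protein genes 1 was higher, of 38 nuclear oxidative phosphorylation genes 1 was higher and of 24 cholesterol genes 1 was higher, with 0 lower in each, against 8.97% and 8.62% of all genes. These were RPS24, COX5B and CYP51A1, and none of the 3 passed with equal totals or without control line 2. For nuclear oxidative phosphorylation, equal totals gave 0 higher and 3 lower of 38, against 795 and 1867 of 14018 genes. Without the line labelled KO guide 1, 10 ribosomal protein genes and 8 nuclear oxidative phosphorylation genes were higher. Among 13 mitochondrially encoded protein genes 7 were higher and 0 lower (median 0.52). Line medians were 0.61, 0.51 and 1.15 in 3 lines and -0.06 in the line labelled KO guide 1. COX1, a subunit of cytochrome oxidase, had 172272 and 264302, 251826 and 394148, 224154 and 237108, and 244716 and 542524 counts in the 4 lines (adjusted p = 0.0286 by limma). The count of 7 became 0 without control line 2, 2 without control line 1 or the line labelled KO guide 2, 13 without the line labelled KO guide 1, 2 by DESeq2 and 3 after correction for GC content and length. The mitochondrial share of reads given above was highest in the library in which COX1 was highest, replicate 2 of the line labelled KO guide 2.

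**Figure D4:**
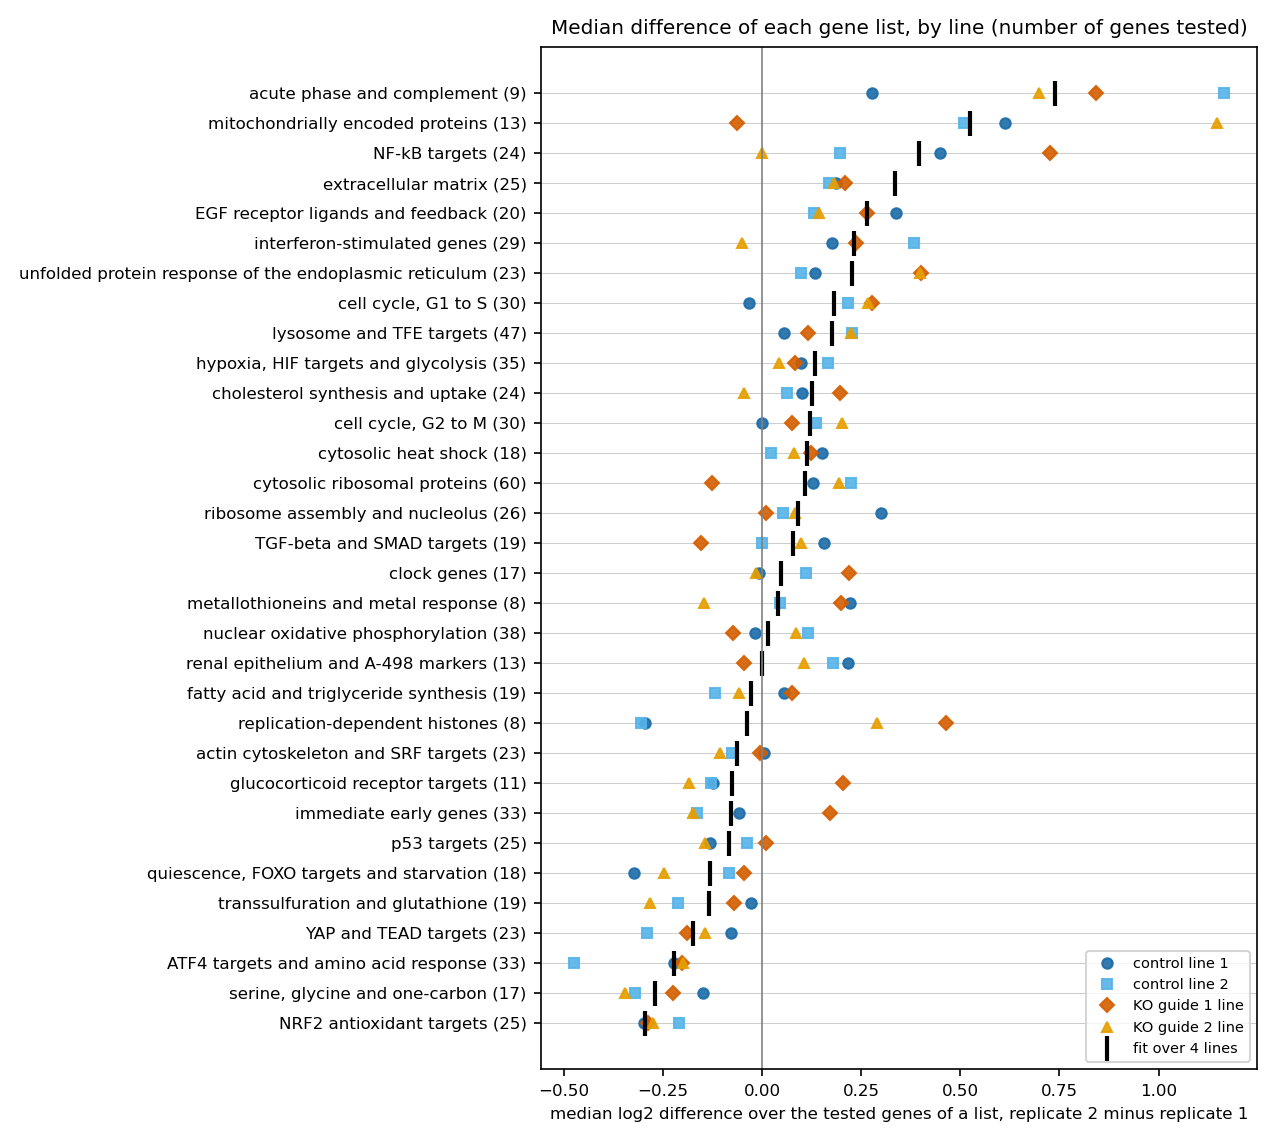
Median log2 difference (replicate 2 minus replicate 1) over the tested genes of each of 32 lists, with a symbol per line and a bar for the fit over 4 lines, and the number of genes in brackets. The 4 line medians are all above 0 in 9 lists and all below 0 in 6, among them NRF2 and ATF4 targets.

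The differences also varied with the length and base composition of transcripts, measured for 97.4% of the tested genes on the longest annotated transcript. Across genes, the Spearman correlation of the difference with length was -0.17 in control line 1, -0.25 in control line 2, and in the lines labelled KO guide 1 and KO guide 2 it was 0.03 and -0.16. With GC content it was -0.00, -0.06, -0.14 and -0.23 in the same order. The median difference of the shortest quintile of genes was 0.09, 0.16, -0.01 and 0.14, and that of the longest quintile was -0.06, -0.14, 0.01 and -0.08. After both trends were removed within each line, 2442 of 13669 genes passed, 1239 higher and 1203 lower, and 1924 of 2426 calls were shared. Some lists kept similar counts, with 10 higher and 3 lower for NF-kB, 13 lower for NRF2, 13 lower for ATF4 and 6 lower for serine, glycine and one-carbon genes. Others did not. Extracellular matrix genes, with a median transcript length of 6547 bases against 3587 for all genes, went from 7 to 13 higher, hypoxia genes from 7 to 11 higher, clock genes from 2 to 4 higher and mitochondrially encoded genes from 7 to 3 higher. The lower genes went from 5 to 8 among p53 targets, from 1 to 3 in G2 to M, from 0 to 3 in nuclear oxidative phosphorylation and from 5 to 7 in transsulfuration and glutathione. For G2 to M (3 of 30) and nuclear oxidative phosphorylation (3 of 38), the share after correction was near the 1203 of 13669 over all genes.

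**Figure D5:**
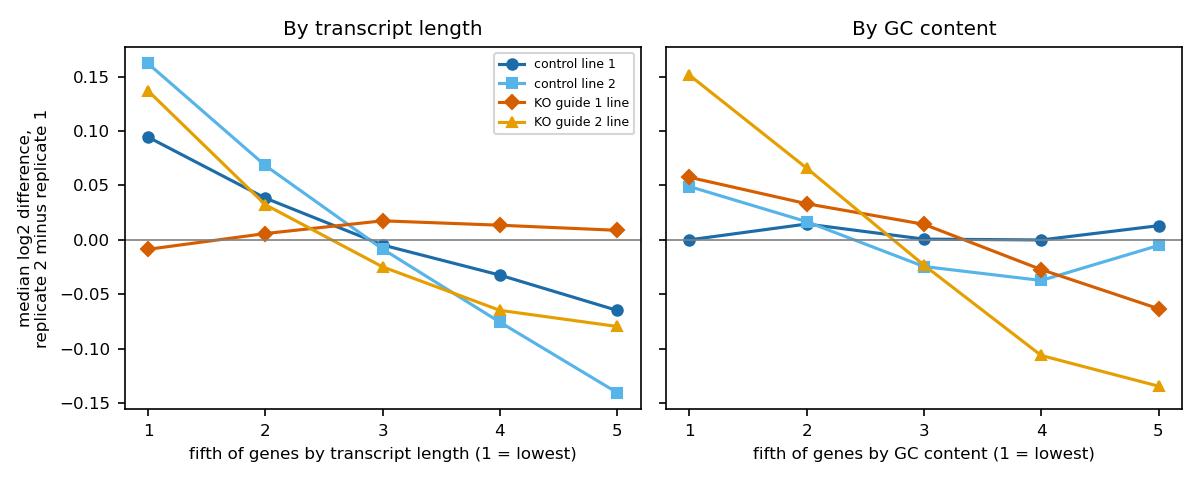
Median log2 difference (replicate 2 minus replicate 1) in quintiles of the genes by transcript length (left) and by GC content (right), with a line for each of the 4 cell lines. The shortest quintile is highest in 3 lines and flat in the line labelled KO guide 1, and the slope with GC content is steepest in the line labelled KO guide 2.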

How the data were processed

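RNA-seq reads of 8 libraries (4 lines, 2 replicate numbers) were processed by the authors, and the submitters' processing notes name fastp 0.23.2, HISAT2 2.2.1, featureCounts 2.0.1, DESeq2 2.11.40.8 and the build hg38. Annotation and strand use in counting are not given in the sources used here, so reads of a gene and an antisense partner cannot be told apart. The deposited values were a signal, reads per gene divided by 1 factor per library. Of the values, 100% were whole multiples of the value of 1 read (tolerance 0.001), which gave back 15784890 to 22631588 reads per library. A chi-square test of reads gave 18.1 to 70.6 per degree of freedom between the libraries of a line, more than counting noise. The test was run within lines only and cannot tell a separate culture from a second preparation of the same RNA.

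Testing was limited to genes that reached a value of 10 in 2 or more libraries and used limma 3.58.1 (R 4.3.3, lmFit and eBayes with a trend) on log2(value + 1), with line and replicate number as terms, so that libraries were paired within line. The pairing comes from the line named in the labels. Adjustment was by Benjamini-Hochberg over 14040 genes. The fit was tested on simulated data. Symbols came from RefSeq (GRCh38.p14) for 27745 of 28395 identifiers. Only 0.0332% of reads fell on the 650 without one. Of 125 named genes, 96 had a promoter window. In RefSeq, 66 of the 125 overlapped another gene, and in 9 of them an overlapping gene had at least 10% of the named gene's mean value: CASTOR3P, CP, SREBF1, CCNE2, LOX, ND4L, ATP8, CLOCK and RBL2. These values are uncertain.

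The lists and genes were chosen with earlier results of these data known. Some lists share genes, so their counts are not independent. SPRY4 is among both immediate early and EGF receptor feedback genes, and VEGFA among both ATF4 targets and hypoxia genes. Named genes were EGR1, GPNMB, SAA1 and CBS, the 12 largest differences each way (mean of at least 50, same direction in all 4 lines), up to 4 members per list by size of change with a mean of at least 50, GGNBP2 and ANXA4. Alternatives covered pseudocount, filter, scaling, thinning, edgeR 4.0.16, DESeq2 1.42.0, pairing, each line left out, and pairs of lines. The correction for GC content and length was added after seeing the data.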

Additional observations from a re-analysis of the deposited data

Results flagged for a closer look

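In each of 160 values examined across the 4 lines, a line was marked where its gap to the nearest other line took up most of the range of the 4. Chance marks about 1 in 20, and 15 were marked. Among lists, control line 2 stood apart for ATF4 targets (-0.48, against a fitted median of -0.22), and the line labelled KO guide 1 for glucocorticoid receptor targets (0.20, against -0.076). Control line 2 stood apart for ASNS (-1.36, fitted -0.86) and H1-2 (1.15, fitted 0.70). Control line 1 stood apart for STC1 (0.70, fitted 1.43), RRM2 (0.40, fitted 0.62), AKR1C1 (-0.84, fitted -0.69) and NIP7 (0.51, fitted 0.29). The line labelled KO guide 1 stood apart for BMAL1 (-0.24, fitted -0.71). The line labelled KO guide 2, which had the highest mitochondrial share of reads, stood apart for MANF (0.80, fitted 0.55), DNAJB11 (0.94, fitted 0.52), CHORDC1 (0.57, fitted 0.31), MT2A (1.498, fitted 0.91), INHBA (1.94, fitted 0.998) and BHLHE40 (0.12, fitted 0.39).

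The pairs of lines moved in opposite directions for GGNBP2, whose fitted difference over all lines was 0.18 and whose difference between the pairs of lines was -4.25 (adjusted p = 0.00718, limma interaction). Replication-dependent histones had medians of -0.29 and -0.31 in the control lines and of 0.46 and 0.29 in the lines labelled KO, over 8 genes tested of 26 listed (fitted median -0.039). That difference between the pairs was not tested.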

How the results depend on the processing

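The count of 2470 genes stayed between 2043 and 2662 under other pseudocounts, filters, scalings, thinning, edgeR, DESeq2 and the correction for GC content and length. It was 0 with no replicate block, that is, with the libraries not paired within line, 709 to 2274 with 1 line left out, 77 in the control lines alone and 133 in the lines labelled KO alone. In the last 3 kinds of fit all 2470 genes kept their sign. These genes were chosen on the same libraries, and 2385 of them had the same direction in every line. Each such fit used a part of those libraries, so the kept sign was largely set by the choice and is no separate check. The number with the same direction in every line was 9543 in the control lines alone and 8755 in the lines labelled KO alone, since fewer lines must agree. Likewise the number without overlap was 1684 to 2879 with 1 line left out, 5785 in the control lines alone and 4603 in the lines labelled KO alone. The difference between the pairs of lines was called for 0 genes with a floor of 50, 3 by DESeq2 and 0 to 3 with 1 line left out. GGNBP2 reversed in the lines labelled KO alone (-1.95).

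Of the calls among 125 named genes, 122, that is all of them, were lost without pairing, 101 in the control lines alone and 77 in the lines labelled KO alone. Leaving out a line lost 9 (KO guide 1), 26 (control line 1), 27 (KO guide 2) or 46 (control line 2) calls. Equal totals lost 13, the correction for GC content and length 11, no filter 10, equal totals without mitochondrial genes 6, DESeq2 5 and thinning 2. List medians of metallothioneins (-0.04), nuclear oxidative phosphorylation (-0.06) and clock genes (-0.03) changed sign with equal totals. Depth limits genes of few reads, and the smallest library held 15784890 reads.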

Other observations

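Of 17 clock genes, which keep daily rhythms in single cells, 2 were higher and 2 lower (11.8% each, against 8.97% and 8.62% of all genes), which is near the share over all genes. BMAL1, the partner of CLOCK, had 313 ± 37.6 and 196 ± 60.6 counts (SD, n = 4) in replicates 1 and 2 (log2 -0.71, SE 0.13, adjusted p = 0.00447 by limma, lower in 4 of 4 lines). PER3, a repressor in the same loop, had 208 ± 33.0 and 317 ± 18.7, with no overlap (log2 0.62, SE 0.11, adjusted p = 0.00396 by limma). BHLHE40 was higher by 0.39 and CLOCK differed by -0.28, and both calls were lost without either control line.

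Of 8 metallothionein and metal response genes tested of 15 listed, 3 were higher (37.5%, against 8.97% of all genes) and 0 lower (median 0.04). MT2A, a metal-binding protein also induced by glucocorticoids, had 5511 and 8963 counts in control line 1, 2969 and 4979 in control line 2, 2509 and 4030 in the line labelled KO guide 1, and 2922 and 8252 in the line labelled KO guide 2 (log2 0.91, SE 0.12, adjusted p = 0.001 by limma). MT1X was higher by 0.88 (SE 0.16), but metallothionein genes are near copies. SLC39A10, the other of the 3, did not pass without any 1 line (adjusted p = 0.0524 to 0.118 by limma). Of 19 TGF-beta and SMAD targets, 4 were higher and 2 lower (21.1% and 10.5%, against 8.97% and 8.62% of all genes). The list's median of 0.08 was -0.03 without control line 1 and -0.06 in the lines labelled KO alone. INHBA, the activin A subunit, was higher by 0.998 (SE 0.18), ID2 by 0.67 (SE 0.13) and ID1 by 0.51 (SE 0.13), while TGFB2, a ligand, differed by -0.45 (SE 0.10). ID1, ID2 and TGFB2 were not called without control line 2 (adjusted p = 0.148, 0.0564 and 0.0897 by limma).

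Of 18 FOXO and starvation genes, 0 were higher and 4 lower (22.2%, against 8.62% of all genes), and 1 was lower without either control line or without the line labelled KO guide 2. SESN3, a sestrin that restrains mTORC1, ranged from 166 to 315 in replicate 1 and from 91.5 to 160 in replicate 2, with no overlap (log2 -0.69, SE 0.13, adjusted p = 0.00677 by limma). Of 19 lipid synthesis genes, 2 were higher and 1 lower (10.5% and 5.26%), which is near the share over all genes (8.97% and 8.62%). The desaturase SCD was higher by 0.67 (SE 0.11) and the synthase FASN differed by -0.38 (SE 0.11). The FASN call was lost without control line 2 (adjusted p = 0.158 by limma), without the line labelled KO guide 2 (0.159) and after correction for GC content and length.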
